A study of Homo sapiens with 4 samples.

Results

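The genes described here encode the SR proteins, the heterogeneous nuclear ribonucleoproteins (hnRNPs) and a few related splicing regulators, followed in UMSCC74B cells given control or PRMT5 shRNA. They were chosen by name, as every gene called SRSF or HNRNP with a number or letter (pseudogene names left out) together with TRA2A, TRA2B, PTBP1, PTBP2, RBFOX2, MBNL1, MBNL2, SRRM1 and SRRM2. This gave 43 genes of 29655 names in the count tables, 12 of them SRSF genes, 22 HNRNP genes and 9 other regulators. Of the 43, 42 were expressed highly enough to be tested, among 11919 genes tested in all.

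SR proteins carry RNA recognition motifs and a domain rich in arginine and serine, bind enhancers within exons and recruit the spliceosome to nearby splice sites. The hnRNPs coat the nascent transcript, and many of them, hnRNP A1 and PTB among them, silence exons, so that the balance between both classes helps to set which exons enter an mRNA. Many of these genes also limit their own expression by splicing a premature stop codon into the transcript, which is then degraded by nonsense-mediated decay. PRMT5 is an arginine methyltransferase that symmetrically dimethylates Sm proteins of the spliceosome and RNA-binding proteins rich in arginine and glycine.

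UMSCC74B is an established line from a squamous cell carcinoma of the head and neck (HNSCC). The study sequenced total RNA from 2 libraries of cells with control shRNA, whose genotype is given as WT, and 2 libraries of cells with PRMT5 shRNA, given as PRMT5 KD, all 72 h after delivery. The labels speak of transfected plasmids and the methods of lentiviral particles, and the labels do not say which PRMT5 shRNA sequence was used. Whether the 2 libraries of a group came from separate cultures is not stated, so the p-values measure the spread between these samples, which may be technical.

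Totals ran from 52185289 to 65964558 estimated counts per library, and protein-coding genes took 71.6% to 81.4% of them. Ribosomal RNA took 15.3% and 14.2% of the counts in control and 26.2% and 18.0% in the PRMT5 KD libraries. PRMT5 itself was at 94.1 and 84.1 CPM in control and 132 and 149.5 CPM in the PRMT5 KD libraries (counts scaled by TMM to a common library size), a log2 fold change of 0.66 (SE 0.12, FDR = 0.00536), where SE is the standard error. The transcript that the shRNA targets was thus higher under the PRMT5 KD label, and every direction below is by that label. The study reports that an immunoblot showed the silencing by PRMT5 shRNA, a measure of protein that gene counts do not give. Of 10 squamous markers only TP63, DSP and PKP1 were high enough to be tested, of which TP63 was called lower (-1.35, FDR = 0.0109), PKP1 was called higher (0.79, FDR = 0.00537) and DSP did not pass (0.58, FDR = 0.107). KRT5 had counts of 0, 0, 0 and 4 in the 2 control and then the 2 PRMT5 KD libraries, KRT6A had 0, 1, 0 and 0, KRT14 had 0, 0, 11 and 22 and CDH1 had 9, 4, 2 and 4, so that these defining epithelial markers were at or near 0. The 10 squamous markers summed to 31.7 and 29.3 CPM in control and 33.9 and 59.7 CPM in the PRMT5 KD libraries. All 5 fibroblast markers (COL1A1, COL1A2, COL3A1, DCN and PDGFRB) were called lower, and their summed level went from 360 and 438 CPM to 47.5 and 64.7 CPM. Of 5 leukocyte markers only CD68 was tested, CD3E was at 0 in every library, and their sum was 71.9 and 85.9 CPM against 113 and 147 CPM. Of 4 endothelial markers only PECAM1 was tested, and their sum went from 8.30 and 11.2 CPM to 1.56 and 0.994 CPM. MKI67, a marker of proliferating cells, was at 294 and 228 CPM (TMM scaled) in control and 827 and 756 CPM in the PRMT5 KD libraries. TP63, PKP1, the fibroblast, endothelial and leukocyte markers and MKI67 moved with the groups alongside the splicing genes, and their part in the results was not tested. In bulk libraries, fewer cells of a type and less RNA per cell cannot be told apart.

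The sequences just upstream of transcription of 4 of the genes are shown because these genes span the range of what was measured: HNRNPAB and PTBP1 had the highest called log2 fold changes of the 42 genes, SRSF3 the highest of the SRSF genes, and MBNL2 was the one gene called lower. Each run covers the 250 bases before a RefSeq start site, less any base that belongs to an annotated exon of the gene, reads 5′ to 3′ on the strand of the gene, and is from GRCh38.p14. Capitals mark a CCAAT box (CCAAT, or ATTGG for the other strand) and a TATA box (TATAAA or TTTATA).
HNRNPAB (chr5:178204283-178204532, plus strand): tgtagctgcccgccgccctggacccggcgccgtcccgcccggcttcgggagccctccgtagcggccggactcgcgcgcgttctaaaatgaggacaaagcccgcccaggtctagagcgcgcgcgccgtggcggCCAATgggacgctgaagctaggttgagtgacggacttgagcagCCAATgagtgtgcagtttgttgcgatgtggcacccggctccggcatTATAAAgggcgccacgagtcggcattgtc
SRSF3 (chr6:36594112-36594352, plus strand): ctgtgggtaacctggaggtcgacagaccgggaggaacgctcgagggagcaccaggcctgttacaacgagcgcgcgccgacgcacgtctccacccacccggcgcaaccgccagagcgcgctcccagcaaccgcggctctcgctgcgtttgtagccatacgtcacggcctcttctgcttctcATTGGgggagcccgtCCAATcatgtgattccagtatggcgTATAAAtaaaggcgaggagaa
PTBP1 (chr19:797734-797983, plus strand): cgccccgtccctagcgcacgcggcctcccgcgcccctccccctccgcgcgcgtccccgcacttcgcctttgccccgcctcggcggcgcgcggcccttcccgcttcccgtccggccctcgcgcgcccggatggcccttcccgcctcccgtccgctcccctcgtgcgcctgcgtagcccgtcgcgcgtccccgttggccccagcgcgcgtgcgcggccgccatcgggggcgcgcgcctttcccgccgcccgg
MBNL2 (chr13:97141584-97141833, plus strand): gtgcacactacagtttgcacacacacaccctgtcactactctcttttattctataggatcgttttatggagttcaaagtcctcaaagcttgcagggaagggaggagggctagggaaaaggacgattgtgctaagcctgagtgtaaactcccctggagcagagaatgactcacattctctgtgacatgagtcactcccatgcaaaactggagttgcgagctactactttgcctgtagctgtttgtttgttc
The HNRNPAB stretch held 2 CCAAT boxes and a TATA box at base -29 from the start site. The SRSF3 stretch likewise held 2 CCAAT boxes, 1 on each strand, and a TATA box at base -30. The PTBP1 stretch lies inside the gene, between its listed starts. The MBNL2 stretch lies before a RefSeq start that is upstream of the span GENCODE gives the gene. Both stretches held neither motif. PTBP1 and MBNL2 each have another listed start, whose upstream bases begin in an annotated exon and are not shown. A CCAAT box was found in those bases for both genes.

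Over all the genes, 39 of 43 had a RefSeq promoter entry, with 59 start sites between them, and HNRNPA1, TRA2A, SRSF2 and RBFOX2 had none. All 250 bases before the start were searched on either strand, annotated exon bases included. A CCAAT box was found in 25 of the 59 (42.4%), against 32.0% of 35116 promoters of the genome. Genes called higher held 17 of the 59 start sites. Of those 17, 7 (41.2%) had a CCAAT box, against 18 of the other 42 start sites (42.9%). The TATA box occurred in 6 of 59 (10.2%, against 10.7%). Of those 6, 4 were among the 17, in HNRNPAB, HNRNPD, SRSF3 and SRSF7. The HNRNPD and SRSF7 matches lay in bases that were left out of the runs described above. A GC box (GGGCGG or CCGCCC) was found in 33 (55.9%, against 42.6%) and the E-box CACGTG in 8 (13.6%, against 6.34%). The ETS core CCGGAAG or CTTCCGG was found in 5 (8.47%, against 8.52%) and the NRF1 core GCGCATGC or GCATGCGC in 3 (5.08%, against 2.63%). The element TTTGAA or TTCAAA, known as CHR in cell cycle promoters, was found in 6 (10.2%, against 13.3%), none of them among those 17. The letters of the E2F motif searched (TTTGGCGC or GCGCCAAA) were in none of the 59, against 0.550% of all promoters. None of these motifs contains another, and a match is a description of the letters, not of a bound site.

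The question put to these libraries was how the transcripts of splicing regulators changed with PRMT5 shRNA. Counts were scaled by TMM and compared by the quasi-likelihood method of edgeR, and p-values were adjusted after Benjamini and Hochberg over the 11919 genes (FDR). Called genes are those with an FDR under 0.05 whose log2 fold change was 0.5 or more in either direction. In all, 13 of 42 genes (31.0%) were called higher, against 21.2% of all genes tested, and 1 (2.38%) was called lower, against 24.3%. With the FDR alone, 16 genes (38.1%) were higher, against 26.3% of all genes, and 3 (7.14%) were lower, against 28.1%. The genes called higher were HNRNPAB, PTBP1, HNRNPA1, SRSF3, HNRNPD, SRSF7, HNRNPM, SRSF2, SRSF9, TRA2B, HNRNPDL, SRRM1 and HNRNPL, and MBNL2 was called lower.

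The median log2 fold change of the 42 genes was 0.27, against -0.0069 over all genes, and 28 were above 0 and 14 below (34 above 0 with total counts in place of TMM). HNRNPCL1 is among the 28 and passed the expression filter through the PRMT5 KD libraries alone. Changes were small for this comparison, with a median absolute log2 fold change of 0.35 against 0.49 over all genes. The 42 genes were also at a higher level, with a median of the average log2 CPM of 6.85 against 5.10 over all genes. The part of this level in the size of the changes was not tested. HNRNPAB alone among the 42 passed a log2 fold change of 1 in either direction, as 22.1% of all genes did. The libraries of the groups did not overlap for 34 of the 42 genes (81.0%), close to the 80.5% of all genes tested. Scaling by total counts moved the median of all genes to 0.17 and that of the 42 genes to 0.44. It also raised the share of calls that were higher, over all genes, from 46.6% to 61.3%. Without control replicate 2, 7 of the 42 genes were called higher and 2 lower, against 11.4% and 14.7% of all genes.

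**Figure D1:**
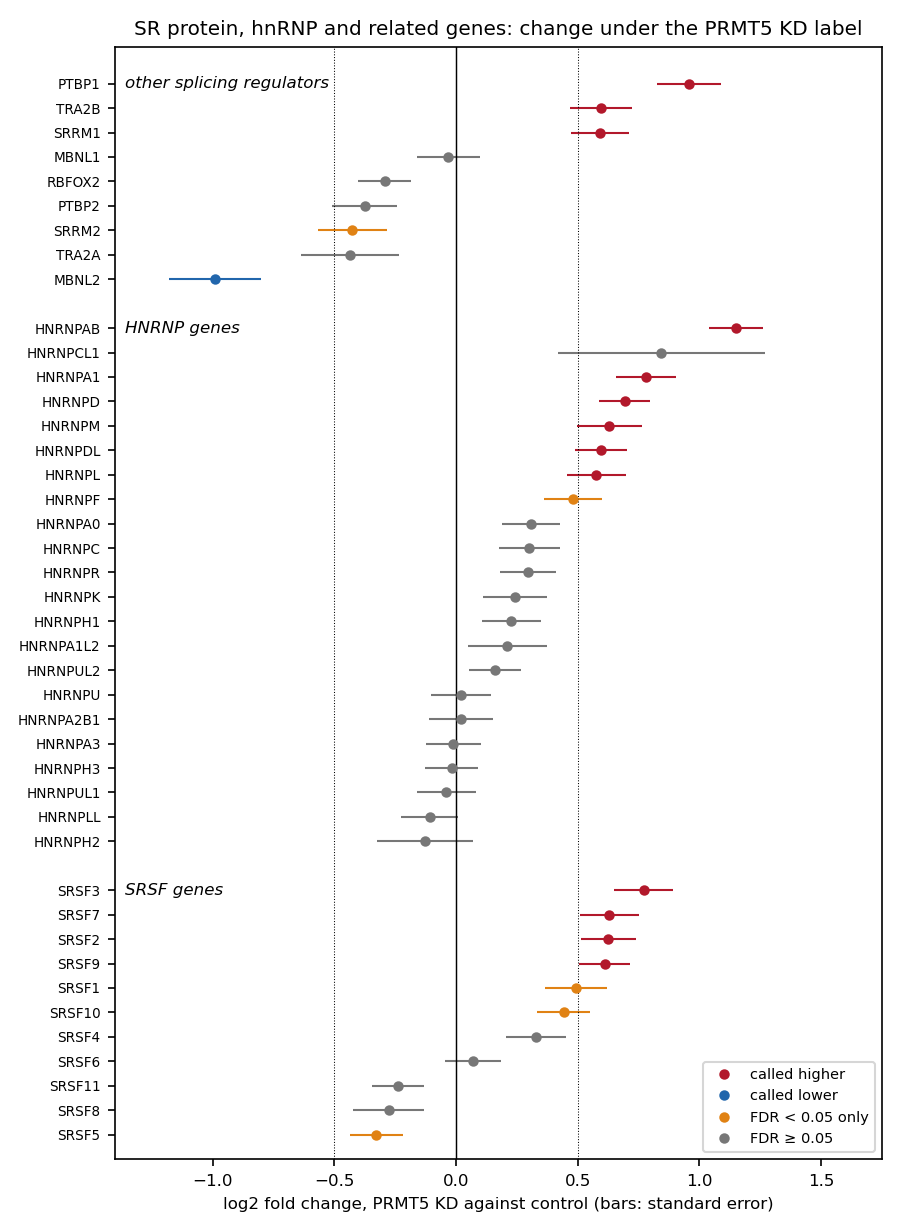
Log2 fold change of each of the 42 genes tested (points) with its standard error (bars), libraries labelled PRMT5 KD (n = 2) against control (n = 2), grouped into SRSF, HNRNP and other genes; dotted lines mark 0.5 in either direction. The 13 genes called higher lie between 0.58 and 1.15, and MBNL2 alone is called lower, at -0.99.

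**Figure D2:**
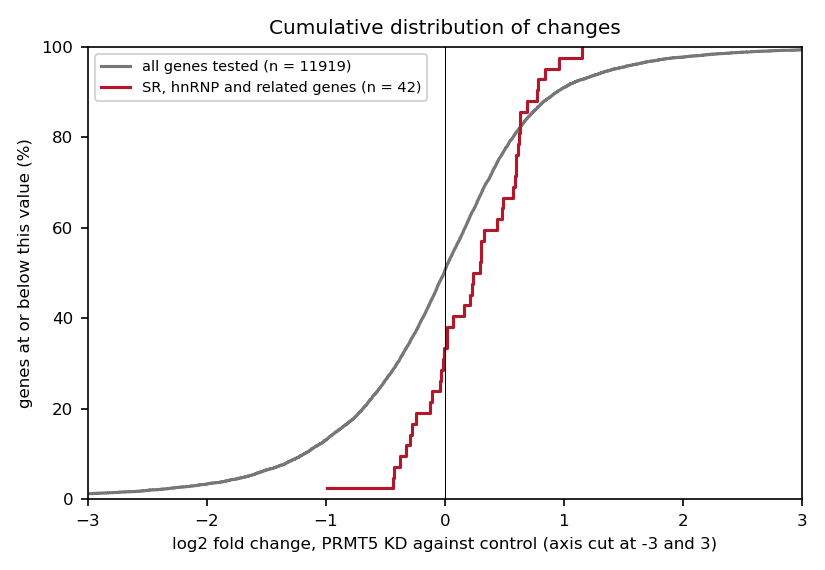
Share of genes (vertical axis, percent) with a log2 fold change at or below the value on the horizontal axis, for the 42 splicing genes and all 11919 genes tested. The curve of the 42 genes is steeper, from -0.99 to 1.15, and crosses its middle at 0.27 against -0.0069 for all genes.

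Summed over the 42 genes, the level was 7493 and 7068 CPM in control and 8379 and 8433 CPM in the PRMT5 KD libraries, a ratio of 1.15 between the group means. HNRNP genes made up 3781 and 3643 CPM in control and 4578 and 4591 CPM in the PRMT5 KD libraries, a ratio of 1.23. SRSF genes went from 1177 and 1130 CPM to 1424 and 1490 CPM, a ratio of 1.26. The other regulators were at 2535 and 2295 CPM against 2377 and 2352 CPM, a ratio of 0.979. The groups did not overlap for the sums of the HNRNP and SRSF genes, while the sums of the other regulators overlapped.

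Levels of different genes were compared per length of the exons of all annotated transcripts (RPKM), as control means. SRRM2, a large scaffold protein of nuclear speckles, stood first at 101 RPKM, followed by HNRNPK at 94.5, HNRNPF at 78.1, HNRNPC at 61.3 and SRSF2 at 45.7. HNRNPL lay just under SRSF2 at 45.4 RPKM. With the length of the canonical transcript alone, the order was HNRNPK at 186, SRRM2 at 145, HNRNPC at 141, HNRNPL at 138 and HNRNPF at 99.5. The order among the most abundant genes therefore depended on the transcript model. HNRNPCL1, a relative of HNRNPC, had the lowest level of those tested, 0.278 RPKM. SRSF12 was not tested, with counts of 0 and 1 in control and 8 and 8 in the PRMT5 KD libraries.

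Among the SR proteins, 4 of 11 tested were called higher (SRSF3, SRSF7, SRSF2 and SRSF9; 36.4%, against 21.2% of all genes) and none lower, against 24.3%. Their median log2 fold change was 0.44, with 8 of 11 above 0. SRSF3, the smallest SR protein, which also serves as an adaptor for mRNA export, lies on chromosome 6 from 36594353 to 36605600 of GRCh38. It was at 134 and 123 CPM in control and 206 and 232 CPM in the PRMT5 KD libraries, a log2 fold change of 0.77 (SE 0.12, FDR = 0.00278). Both PRMT5 KD libraries lay well above both control libraries, and its upstream sequence is the second of those shown above. SRSF7, close in sequence to SRSF3 and likewise an export adaptor, was at 75.0 and 68.2 CPM against 103 and 118 CPM, with a log2 fold change of 0.63 (SE 0.12, FDR = 0.00620). SRSF2, a marker of nuclear speckles that binds exonic enhancers, was at 132 and 140.4 CPM against 202 and 217 CPM, and its log2 fold change was 0.63 (SE 0.11, FDR = 0.00462). For SRSF9, which is related to SRSF1, the libraries held 56.5 and 58.3 CPM against 89.3 and 86.0 CPM, and the log2 fold change was 0.61 (SE 0.10, FDR = 0.00389). For all 4 of these genes the control libraries lay below the PRMT5 KD libraries without overlap. Of these calls, 2 rested on single control libraries: SRSF2 had an FDR of 0.0558 without control replicate 1, and SRSF7 an FDR of 0.0716 without control replicate 2.

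SRSF1, the founding member of the SR family, was at 185 and 163 CPM in control and 258 and 231 CPM in the PRMT5 KD libraries, a log2 fold change of 0.49 (SE 0.13, FDR = 0.0180). SRSF10, which represses splicing when dephosphorylated, was at 68.1 and 62.5 CPM against 88.7 and 88.6 CPM and had a log2 fold change of 0.44 (SE 0.11, FDR = 0.0147). Both passed the FDR and stayed just under the fold threshold of 0.5. With total counts (0.67 and 0.62) or all gene names kept (0.60 and 0.55) both reached a call. SRSF1 also reached one with DESeq2, at 0.5005. With length and GC content corrected for, SRSF10 was called at 0.66, while SRSF1 came to 0.41. Neither passed the FDR without control replicate 1 (SRSF1 0.0630, SRSF10 0.0586) or without control replicate 2 (0.150 and 0.120). Without PRMT5 KD replicate 2, SRSF1 reached a call at 0.58. SRSF5 was the SR protein that passed the FDR in the other direction, at 105 and 102 CPM against 78.9 and 85.7 CPM and a log2 fold change of -0.33 (SE 0.11, FDR = 0.0408). It did so without PRMT5 KD replicate 2 as well, while leaving out any other library gave FDR values from 0.152 to 0.176. SRSF5 also did not pass with total counts (-0.15, FDR = 0.314) or with the replicate number as a block (FDR = 0.0740). Nor did it with the other filters on low counts and with all gene names kept (FDR from 0.0835 to 0.139). It passed with DESeq2 (FDR = 0.0469), upper quartile scaling (FDR = 0.0436) and non-robust dispersion (FDR = 0.0397). With length and GC content corrected for, SRSF5 came to -0.42 (FDR = 0.0165). SRSF4 (0.33, FDR = 0.0600), SRSF6 (0.069, FDR = 0.634), SRSF8 (-0.28, FDR = 0.150) and SRSF11 (-0.24, FDR = 0.105) did not pass. SRSF6 was at 198 and 193 CPM against 195 and 215 CPM, with overlapping groups, and SRSF4, SRSF8 and SRSF11 did not overlap.

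TRA2A and TRA2B are SR-like proteins that bind purine-rich exonic enhancers. TRA2B, on chromosome 3 from 185914558 to 185938103, was at 85.7 and 72.2 CPM in control and 116 and 123 CPM in the PRMT5 KD libraries, a log2 fold change of 0.60 (SE 0.13, FDR = 0.00847). TRA2A, on chromosome 7 from 23504780 to 23532041, was at 47.6 and 31.7 CPM in control and 28.5 and 30.1 CPM in the PRMT5 KD libraries, with a log2 fold change of -0.44 (SE 0.20, FDR = 0.113). TRA2B rose, and TRA2A did not pass the test, its control libraries lying far apart. Control replicate 2 decided both calls: without it TRA2B had an FDR of 0.0817, and TRA2A came to -0.70 with an FDR of 0.0392. Without control replicate 1, TRA2A was at -0.11.

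SRRM1 and SRRM2 are SR-related proteins of the nuclear matrix that join enhancer-bound SR proteins to the spliceosome. SRRM1, on chromosome 1 from 24631716 to 24673281, was at 110.0 and 104 CPM in control and 150.4 and 172 CPM in the PRMT5 KD libraries, with a log2 fold change of 0.59 (SE 0.12, FDR = 0.00710). SRRM2, on chromosome 16 from 2752626 to 2772538, was at 1379 and 1245 CPM in control and 955 and 999 CPM in the PRMT5 KD libraries, with a log2 fold change of -0.43 (SE 0.14, FDR = 0.0418). SRRM1 rose, while SRRM2 passed the FDR downwards without reaching the fold threshold. SRRM2 did not pass the FDR when any 1 library was left out, with values from 0.0543 to 0.225. It also did not pass with total counts (-0.25, FDR = 0.187) or with the replicate number as a block (FDR = 0.0722). Nor did it with the other filters on low counts and with all gene names kept (FDR from 0.0670 to 0.111). With length and GC content corrected for, SRRM2 came to -0.066 (FDR = 0.716). It passed with DESeq2 (FDR = 0.00625), upper quartile scaling (FDR = 0.0415) and non-robust dispersion (FDR = 0.0464). SRRM1 lost its call without control replicate 1 (FDR = 0.0508), without control replicate 2 (FDR = 0.0779) and without PRMT5 KD replicate 2, where its log2 fold change was 0.498.

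Among the hnRNPs, 6 of 22 were called higher (HNRNPAB, HNRNPA1, HNRNPD, HNRNPM, HNRNPDL and HNRNPL; 27.3%, against 21.2% of all genes) and none lower, against 24.3%. Their median log2 fold change was 0.27, with 17 of 22 above 0 (HNRNPCL1 among them) and the other 5 above 0 with total counts. HNRNPAB, a relative of hnRNP D that binds RNA and single-stranded DNA, lies on chromosome 5 from 178204533 to 178211163. It was at 65.7 and 64.6 CPM in control and 151 and 138 CPM in the PRMT5 KD libraries, and its log2 fold change of 1.15 (SE 0.11, FDR = 0.000570) was the highest of the 42 genes. The control libraries lay close together and far below both PRMT5 KD libraries, a fold of 2.22. HNRNPD, also known as AUF1, binds AU-rich elements in mRNAs, and it was at 73.4 and 71.9 CPM against 119.6 and 115 CPM, a log2 fold change of 0.69 (SE 0.10, FDR = 0.00237). HNRNPDL, its paralog, which lies near HNRNPD on chromosome 4, was at 79.7 and 80.7 CPM against 117 and 125 CPM, with a log2 fold change of 0.59 (SE 0.11, FDR = 0.00465). All 3 of these related genes rose, although the HNRNPDL call was lost without control replicate 2 (FDR = 0.0516).

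The A subfamily packages pre-mRNA and silences exons. HNRNPA1, on chromosome 12 from 54280193 to 54287088, was at 205 and 196 CPM in control and 327 and 362 CPM in the PRMT5 KD libraries, a log2 fold change of 0.78 (SE 0.12, FDR = 0.00272). HNRNPA2B1, its close paralog, was at 334 and 298 CPM in control and 303 and 338 CPM in the PRMT5 KD libraries, with a log2 fold change of 0.020 (SE 0.13, FDR = 0.913). HNRNPA1 rose, while the libraries of the groups overlapped for HNRNPA2B1. HNRNPA3 was at 157 and 148 CPM against 144 and 158 CPM (-0.011, FDR = 0.945, above 0 with total counts), also overlapping, and HNRNPA0, a single-exon gene, at 68.6 and 76.0 CPM against 95.0 and 84.0 CPM (0.31, FDR = 0.0705) without overlap. Reads of HNRNPA1 can also match copies of nearly the same sequence, and their division among these is uncertain. HNRNPA1L2 was at 7.57 and 7.40 CPM against 8.26 and 9.05 CPM (0.21, FDR = 0.307), and the pseudogene HNRNPA1P10 had counts of 258 and 323 in control and 580 and 677 in the PRMT5 KD libraries. With these copies summed, an alternative chosen after seeing the data, the same 14 genes of the set were called.

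HNRNPF and the HNRNPH genes bind runs of guanines. HNRNPF was at 261 and 250.1 CPM in control and 366 and 347 CPM in the PRMT5 KD libraries, a log2 fold change of 0.48 (SE 0.12, FDR = 0.0149), which passed the FDR but not the fold threshold. HNRNPH1 was at 125 and 110.3 CPM against 131 and 144 CPM (0.23, FDR = 0.155), HNRNPH2 at 20.5 and 25.2 CPM against 24.3 and 17.5 CPM (-0.13, FDR = 0.613) and HNRNPH3 at 41.8 and 40.8 CPM against 40.6 and 41.1 CPM (-0.018, FDR = 0.905). None of these 3 passed, and the groups overlapped for HNRNPH2 and HNRNPH3, whose values were above 0 with total counts. HNRNPF reached a call without PRMT5 KD replicate 2 (0.53) and lost the FDR call without control replicate 1 (0.0871) and without control replicate 2 (0.125).

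HNRNPL, which binds CA repeats, was at 296 and 294 CPM in control and 427 and 452 CPM in the PRMT5 KD libraries, a log2 fold change of 0.58 (SE 0.12, FDR = 0.00817). HNRNPLL, its paralog known from alternative splicing in lymphocytes, was at 39.0 and 41.7 CPM in control and 39.3 and 35.6 CPM in the PRMT5 KD libraries (-0.11, FDR = 0.465, above 0 with total counts). HNRNPL rose and the HNRNPLL libraries overlapped. HNRNPM, which binds GU-rich motifs, was at 79.6 and 72.8 CPM against 129 and 106 CPM, with a log2 fold change of 0.63 (SE 0.13, FDR = 0.00876). Both calls were lost without either control library. HNRNPL had an FDR of 0.0713 without control replicate 1 and 0.0826 without control replicate 2. For HNRNPM the corresponding values were 0.0505 and 0.0885.

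HNRNPU, a scaffold protein that ties RNA to chromatin, was at 468 and 464 CPM in control and 468 and 478 CPM in the PRMT5 KD libraries, a log2 fold change of 0.022 (SE 0.12, FDR = 0.896). HNRNPUL1 was at 259.8 and 261 CPM against 269 and 238 CPM (-0.040, FDR = 0.801) and HNRNPUL2 at 42.0 and 42.6 CPM against 46.0 and 48.5 CPM (0.16, FDR = 0.251). None of the U subfamily passed the test, and HNRNPUL1 was above 0 with total counts. Once exon length and GC content were corrected for, HNRNPU came to 0.41 and passed the FDR (0.0308) but not the fold threshold. Reads of HNRNPUL2 can be shared with the readthrough gene HNRNPUL2-BSCL2, whose counts were 1724 and 2200 in control and 1785 and 1685 in the PRMT5 KD libraries. With both summed, the value for HNRNPUL2 was -0.040 (FDR = 0.760).

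The abundant hnRNPs K and C were measured at high counts and did not pass. HNRNPK, which binds runs of cytosines, was at 553 and 525 CPM in control and 662 and 612 CPM in the PRMT5 KD libraries, with a log2 fold change of 0.24 (SE 0.13, FDR = 0.165). HNRNPC, a core component of hnRNP particles that binds runs of uridines, was at 457 and 437 CPM in control and 542 and 559 CPM in the PRMT5 KD libraries, with a log2 fold change of 0.30 (SE 0.13, FDR = 0.0837). For both, the libraries of the groups did not overlap, but the difference did not pass the FDR. HNRNPR gave 148 and 136 CPM against 167 and 182 CPM (0.30, FDR = 0.0669). HNRNPCL1 was at 0.252 and 0.379 CPM against 0.588 and 0.565 CPM (0.84, FDR = 0.137), and as a near copy of HNRNPC it may share reads with it. HNRNPCL1 passed the filter of 0.5 RPKM through the PRMT5 KD libraries alone (mean 0.278 RPKM in control, 0.508 RPKM in PRMT5 KD). Its direction, counted above among the genes above 0 and without overlap, therefore followed from the filter.

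PTBP1 and PTBP2 encode the polypyrimidine tract binding proteins, PTBP1 in most tissues and PTBP2 mainly in neurons. PTBP1, on chromosome 19 from 797075 to 812327, was at 303 and 276 CPM in control and 584 and 539.8 CPM in the PRMT5 KD libraries, a log2 fold change of 0.96 (SE 0.13, FDR = 0.00172). PTBP2, on chromosome 1 from 96721665 to 96823738, was at 27.0 and 23.5 CPM in control and 19.4 and 19.5 CPM in the PRMT5 KD libraries, a log2 fold change of -0.38 (SE 0.13, FDR = 0.0530). PTBP1 rose by a fold of 1.94. PTBP2 was lower in both PRMT5 KD libraries but did not pass the FDR, and its value was 0.0083 once exon length and GC content were corrected for.

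MBNL1, MBNL2 and RBFOX2 are regulators best known from muscle and other differentiating tissues, where MBNL proteins are titrated by expanded CUG repeats in myotonic dystrophy. MBNL2, on chromosome 13 from 97221434 to 97394120, was at 67.1 and 50.4 CPM in control and 33.2 and 26.0 CPM in the PRMT5 KD libraries, a log2 fold change of -0.99 (SE 0.19, FDR = 0.00620). Both PRMT5 KD libraries lay below both control libraries, and MBNL2 was the only gene of the 42 called lower. With any 1 of the 4 libraries left out, its log2 fold change ran from -1.18 to -0.77. MBNL1 was at 358 and 337 CPM in control and 359.6 and 320.2 CPM in the PRMT5 KD libraries, with a log2 fold change of -0.032 (SE 0.13, FDR = 0.852), which was above 0 with total counts, and its libraries overlapped. RBFOX2 was at 157 and 156 CPM against 132 and 124 CPM, with a log2 fold change of -0.29 (SE 0.11, FDR = 0.0560), and did not pass the FDR. MBNL2 moved in the direction of the fibroblast and endothelial markers, whose summed levels are given above, and their part in its value was not tested.

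**Figure D3:**
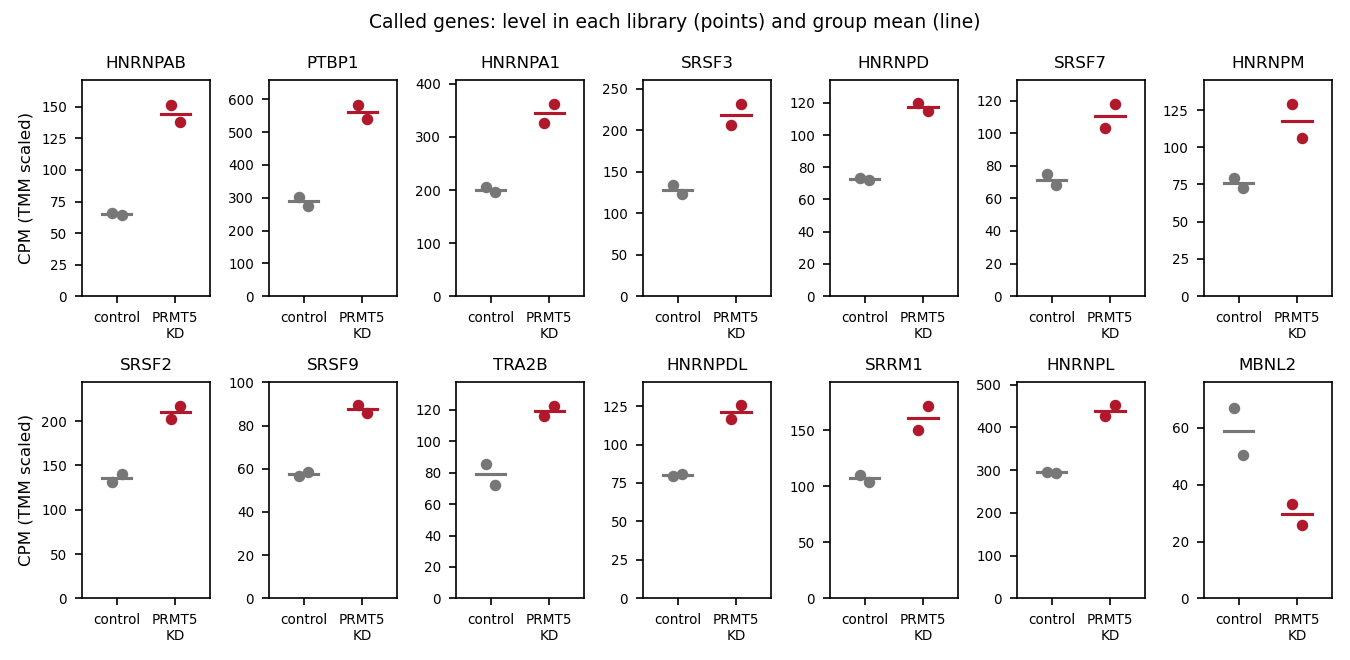
Level in CPM (TMM scaled, vertical axis from 0 in each panel) of the 14 called genes in each control and PRMT5 KD library (points), with the mean of each group of 2 (lines). In all 13 genes called higher the PRMT5 KD points lie above the control points, and for MBNL2 they lie below, at 33.2 and 26.0 CPM against 67.1 and 50.4 CPM.

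Ratios of counts within a library do not depend on how libraries are scaled, and 8 pairs of genes were compared in this way. PTBP1 against PTBP2 was at 11.2 and 11.8 in control against 30.1 and 27.7 in the PRMT5 KD libraries. TRA2B against TRA2A was at 1.80 and 2.28 in control against 4.06 and 4.08 in the PRMT5 KD libraries, and MBNL1 against MBNL2 at 5.33 and 6.68 in control against 10.8 and 12.3 in the PRMT5 KD libraries. In these 3 pairs the ratio was higher in both PRMT5 KD libraries. SRRM2 against SRRM1 was at 12.5 and 12.0 in control against 6.35 and 5.81 in the PRMT5 KD libraries, so the ratio moved the other way. HNRNPA1 against HNRNPA2B1 was at 0.613 and 0.658 in control against 1.08 and 1.07 in the PRMT5 KD libraries, and was higher in both PRMT5 KD libraries. HNRNPL against HNRNPLL was at 7.57 and 7.06 in control against 10.9 and 12.7 in the PRMT5 KD libraries. SRSF3 against SRSF5 was at 1.28 and 1.20 in control against 2.62 and 2.70 in the PRMT5 KD libraries. This last pair was not among those planned. SRSF3 and SRSF5 had the highest and the lowest log2 fold change of the SRSF genes, so the shift of their ratio followed from the choice. For HNRNPF against HNRNPH1 the ratios were 2.09 and 2.27 in control against 2.80 and 2.41 in the PRMT5 KD libraries, the smallest difference of the 8. No pair overlapped between groups. An exact permutation test (two-sided) gave p = 0.333 for each, which is the smallest value that 2 libraries against 2 allow, so none could reach 0.05.

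**Figure D4:**
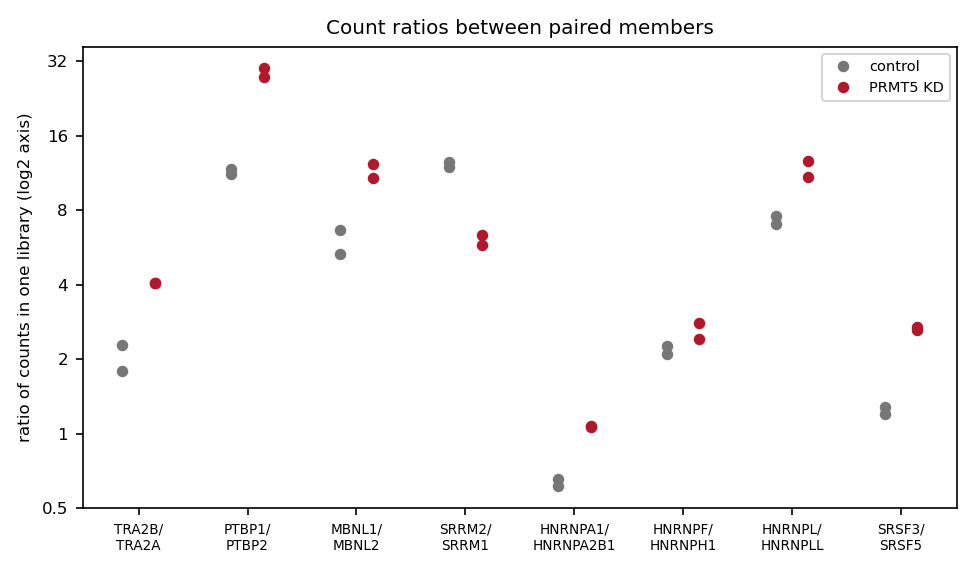
Ratio of counts (log2 axis) of 8 pairs of genes in each of the 2 control and 2 PRMT5 KD libraries (points). The PTBP1 to PTBP2 ratio lies at 11.2 and 11.8 in control and at 30.1 and 27.7 in the PRMT5 KD libraries, and the SRRM2 to SRRM1 ratio at 12.5 and 12.0 against 6.35 and 5.81.

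Over all genes, the fold change varied with gene length. The median log2 fold change was 0.25 in the tenth of genes with the shortest exon sequence and -0.29 in the tenth with the longest. The 42 splicing genes had a median exon length of 6517 bases, against 5389 for all genes, and a median GC content of 41.4%, against 47.5%. Once both were corrected for, the 42 genes had a median of 0.34, against -0.0061 over all genes. In that fit 11 of the 42 were called higher and 2 lower, where 21.1% and 23.3% of all genes were. SRSF2 (0.44), SRSF7 (0.46) and SRSF9 (0.46) then stayed under the fold threshold, while SRSF10 was called higher (0.66) and TRA2A lower (-0.62). HNRNPAB (0.95), PTBP1 (1.20), SRSF3 (0.77) and MBNL2 (-1.10) kept their calls under this correction. HNRNPU, HNRNPH1, HNRNPA0, HNRNPR and SRSF4 passed the FDR under it, though not the fold threshold, with values from 0.37 (HNRNPH1) to 0.42 (SRSF4). SRRM2, whose exons are long, moved from -0.43 to -0.066.

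**Figure D5:**
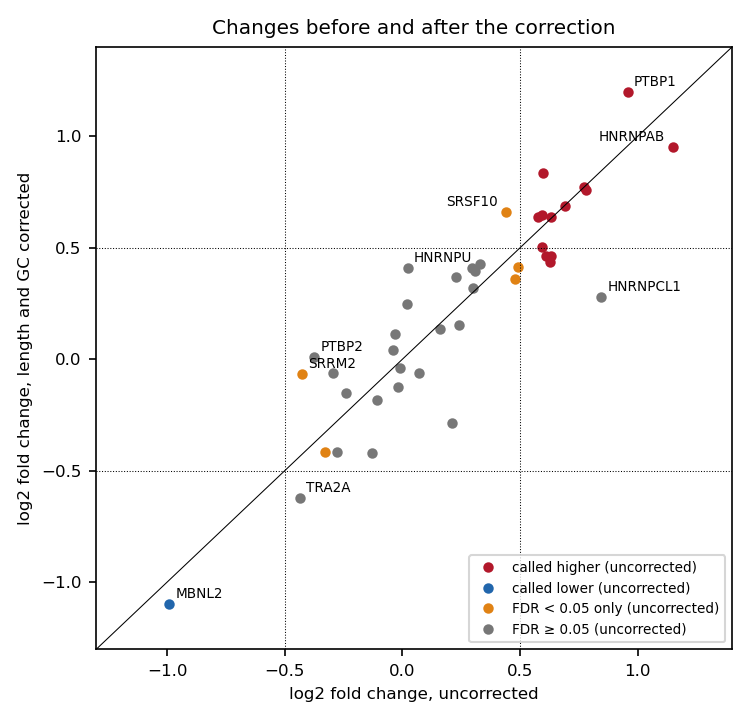
Log2 fold change of each of the 42 genes before (horizontal axis) and after (vertical axis) correcting for exon length and GC; the diagonal marks equal values and dotted lines mark 0.5 in either direction. PTBP1 moves from 0.96 to 1.20, HNRNPAB from 1.15 to 0.95 and SRRM2 from -0.43 to close to 0, at -0.066.

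Gene counts add all transcripts of a gene, those with premature stop codons included, and do not show which were spliced in. In the GENCODE annotation, 33 of the 42 genes (78.6%) have at least 1 transcript marked for nonsense-mediated decay, against 46.9% of all genes tested. A retained intron transcript is annotated for 32 (76.2%), against 59.9%. The genes have a median of 14.5 annotated transcripts, against 8 for all genes. A higher gene count can therefore hold productive and unproductive transcripts alike, and their shares were not measured here.

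The kinases, phosphatases and importers that govern the phosphorylation and nuclear entry of SR proteins were counted as a list of 19 genes, 18 of them tested. Of these, 3 were called higher and 3 lower, where 21.2% and 24.3% of all genes were, and the median log2 fold change was -0.072. CLK1 and CLK4, nuclear kinases that phosphorylate SR proteins, both fell. CLK1 went from 76.2 ± 6.39 to 38.7 ± 0.832 CPM (SD, n = 2), a log2 fold change of -0.98 (SE 0.12, FDR = 0.00106), and CLK4 had a log2 fold change of -1.10 (SE 0.16, FDR = 0.00198). CLK2 fell as well (-0.62, FDR = 0.0124). SRPK1, the kinase that phosphorylates SR proteins in the cytoplasm, rose from 115 ± 1.07 to 186 ± 14.0 CPM (SD, n = 2), a log2 fold change of 0.69 (SE 0.11, FDR = 0.00318). PPP1R8, a nuclear subunit that inhibits protein phosphatase 1 (0.90, FDR = 0.00134), and AKAP8, a nuclear anchoring protein (0.60, FDR = 0.00966), rose.

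Of 54 other RNA-binding regulators, 47 were tested, 6 were called higher and 9 lower, where 21.2% and 24.3% of all genes were, and the median log2 fold change was 0.10. RBM3, a cold-induced RNA-binding protein (1.11, FDR = 0.000568), KHSRP, which acts in splicing and in decay of AU-rich mRNAs (1.09, FDR = 0.000841), and ILF2 (0.79, FDR = 0.00169) rose. PCBP3, a poly(C)-binding protein (-1.64, FDR = 0.000613), MSI2, a Musashi protein of progenitor cells (-1.44, FDR = 0.000727), and MBNL3, the third muscleblind gene (-0.87, FDR = 0.00299), fell. ESRP1 and ESRP2, the splicing regulators of epithelial cells, were too low to be tested.

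Of 52 core spliceosome and exon junction proteins, 51 were tested, of which 23 were called higher and 1 lower, where 21.2% and 24.3% of all genes were, and the median log2 fold change was 0.43. PHF5A, a subunit of the SF3B complex that recognises the branch point, rose from 12.0 ± 0.813 to 32.3 ± 0.465 CPM (SD, n = 2), a log2 fold change of 1.43 (SE 0.13, FDR = 0.000507). PRPF4 of the U4/U6 particle (1.11, FDR = 0.000878) and SNRNP40 of the U5 particle (1.05, FDR = 0.00122) rose as well. PRPF8, the large protein at the centre of the spliceosome, fell from 796 ± 3.63 to 483 ± 43.7 CPM (SD, n = 2), a log2 fold change of -0.72 (SE 0.14, FDR = 0.00597). No test was run over any of these lists.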

How the data were processed

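RNA-seq of UMSCC74B cells was analysed for 2 control and 2 PRMT5 KD libraries, sequenced on the Singular Genomics G4 from a directional kit. The authors deposited estimated counts per gene, 1 table per library, not normalized; 86.0% to 86.8% of the values are whole numbers. The submitters' processing notes name FastQC, Trim Galore, STAR, Salmon, DESeq2 and GRCh38. The methods name FeatureCounts on protein-coding genes, which the decimals and the rRNA and RefSeq-style symbols of the tables do not match, so the program behind the estimates is not known.

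Each table held 29744 rows. Names turned into dates by a spreadsheet (28 rows, 0.150% to 0.161% of the counts) were left out, rows of 1 name were summed, and values were rounded. Names were matched to GENCODE 44 by symbol (21877), RefSeq number (1149) or synonym (1577), with 56 ambiguous and 4996 unmatched. Protein-coding genes (18961 names) were tested where both libraries of control, of PRMT5 KD or of both reached an RPKM of 0.5 on union exon lengths, 11919 in all. Groups were compared by quasi-likelihood in edgeR 4.0.16 (R 4.3.3) with TMM factors (0.946, 0.935, 1.04 and 1.09), robust dispersion and no replicate term, and CPM values are on that scale. The biological coefficient of variation was 0.142, and counting error is small beside it at these depths. The SE of a log2 fold change is its size over the root of its F statistic. The procedure was tested on simulated data.

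The members and lists were chosen with earlier results of these data known, and the lists were written from general knowledge. Values for every library were given for up to 5 genes called in each direction, by size of change (average log2 CPM of at least 3), the 5 with the highest control RPKM, named pairs and families and, beyond the rule, other called genes chosen after their values were seen. For the other lists, up to 3 called genes a direction were named by size of change. Protein sequences were not used here. Promoter sequences are from RefSeq.

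Alternatives were DESeq2 1.42.0, total counts and upper quartile scaling, edgeR's filterByExpr, no filter, all gene names, non-robust dispersion, the largest row of a name, a replicate block, a length and GC correction (splines with 4 degrees of freedom), other thresholds and each library left out. The crossed replicate block and the summed copies were added after seeing the data. Libraries sharing a replicate number deviated from their group means with r = -0.100 across genes, and the numbers were not taken as pairs.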

Additional observations from a re-analysis of the deposited data

How the results depend on the processing

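DESeq2 gave 14 genes called higher and 1 lower, where 22.0% and 24.5% of all genes were. Total counts gave 17 and 1 (29.4% and 18.5% of all genes), and upper quartile scaling 13 and 1 (21.0% and 24.4%). With edgeR's filterByExpr 16 and 1 were called (21.6% and 22.5%), with no filter 15 and 1 (17.5% and 19.2%). All gene names gave 16 and 1, against 21.2% and 21.3% of the names tested. Non-robust dispersion, the largest row of a name and summed copies gave 13 and 1 each. The 13 genes called higher and 1 lower at first were called in all these settings. SRSF1 was added by DESeq2, and HNRNPF, SRSF1, SRSF10 and SRSF4 with total counts. HNRNPF and SRSF1 were also added with filterByExpr, no filter and all gene names, and SRSF10 with the first and last of these. A replicate block gave 13 and 1 and lost none of the 14, with 5182 of all genes called against 5429, and it changed no other call among the 42 genes, though SRSF5 and SRRM2, which passed the FDR alone, no longer did (FDR = 0.0740 and 0.0722). The crossed replicate block, chosen after seeing the data, gave 5498. Length and GC correction gave 11 and 2, where 21.1% and 23.3% of all genes were called. With the replicate block, this correction gave 11 and 1, against 20.2% and 22.5%, and 5093 of all genes. A fold threshold of 1 left 1 higher, 0 lower and 2568 of all genes by its own construction, and the FDR alone gave 16 higher and 3 lower. Without 1 library, 7 to 14 were called higher, 1 to 2 lower and 3119 to 5723 of all genes, the fewest without control replicate 2. With 1 library in a group, that library is assumed to vary like the others.

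Values that changed sign had no call, and the cause was not tested. Total counts gave 0.17 for HNRNPA3, 0.044 for HNRNPH2, 0.16 for HNRNPH3, 0.066 for HNRNPLL, 0.13 for HNRNPUL1 and 0.14 for MBNL1. With filterByExpr, no filter and all gene names, HNRNPA3 was at 0.052, 0.040 and 0.10, HNRNPH3 at 0.045, 0.033 and 0.088, HNRNPUL1 at 0.022, 0.011 and 0.066, and MBNL1 at 0.030, 0.020 and 0.074. Length and GC correction, without and with the replicate block, gave -0.29 and -0.29 for HNRNPA1L2, 0.041 and 0.037 for HNRNPUL1, 0.11 and 0.11 for MBNL1, 0.0083 and 0.011 for PTBP2, and -0.064 and -0.065 for SRSF6. Summed copies gave -0.040 for HNRNPUL2. Without 1 library, HNRNPA2B1 ranged from -0.059 to 0.14, HNRNPA3 from -0.070 to 0.090, HNRNPH2 from -0.34 to 0.10, HNRNPH3 from -0.035 to 0.030, HNRNPUL1 from -0.093 to 0.053 and MBNL1 from -0.080 to 0.057.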

Other observations

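Names of antisense genes (AS1) are formed from 3 of the splicing genes, and the library kit keeps the strand. HNRNPU-AS1 had counts of 1375 and 1547 in control and 765 and 1317 in the PRMT5 KD libraries. PRMT5 KD replicate 1 was the lowest of the 4 libraries. Matching to the annotation gave this name the span, strand and exon length of HNRNPU itself, so an antisense position was not established for it. It was tested as a gene of its own (log2 fold change -0.59, FDR = 0.108), where HNRNPU was at 0.022. MBNL1-AS1 had 164 and 238 in control and 143 and 142 in the PRMT5 KD libraries, and SRRM2-AS1 had 10 and 14 in control and 1 and 3 in the PRMT5 KD libraries. Whether the estimates used the strand is not given in the sources used here. Reads of HNRNPU, MBNL1 and SRRM2 and of these AS1 names may therefore be shared. Of the 5 pseudogene names left out of the set, HNRNPA1P10 is given with HNRNPA1, and the other 4 had counts of 35 and 32 in control and 50 and 44 in the PRMT5 KD libraries for HNRNPA3P1, at most 1 in any library for HNRNPCP5 and HNRNPKP3, and 1 and 2 in control and 2 and 6 in the PRMT5 KD libraries for HNRNPA1P33.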
